A study of Mus musculus with 24 samples.

Results

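The gene set described here comprises the transcription factor p53 (Trp53), its targets and feedback partners Cdkn1a and Mdm2, and the apoptosis regulators Bbc3, Pmaip1, Hrk, Bcl2l11, Bax, Bcl2 and Bcl2l1. These 10 genes were found by symbol among the 47643 gene identifiers counted in the RNA-seq libraries, each under 1 identifier, and all 10 passed the filter on low counts. They were measured in GFP-positive cells sorted from L4 dorsal root ganglia (DRG), the ganglia that hold the cell bodies of sensory neurons. In all mice the ganglion lay contralateral to a sciatic nerve that had been crushed 3 days before, so the nerve of the sampled ganglion was itself uninjured.

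Nav-Tsc2 mice (labelled Tsc2 cKO) carried 1 floxed and 1 null Tsc2 allele, and control mice carried 1 floxed and 1 wild-type allele. All carried Nav1.8-Cre, which recombines mainly in nociceptors, and the Rosa26-ZsGreen reporter that supplied the green signal for the sort. The comparison is therefore of homozygous with heterozygous deletion of Tsc2 in the sorted neurons, and in Nav-Tsc2 mice the null allele was present in every cell of the body. Mice were 8 to 9 weeks old and of mixed C57BL/6 and AJ background. There were 4 mice per genotype, of which replicates 1 and 2 were male and replicates 3 and 4 female, and from each mouse 3 technical libraries of 100 cells were sequenced. The 24 libraries held 8339220 to 34228180 counts on genes, and the 3 libraries of each mouse were summed, which gave 47959617 to 61290435 counts per mouse.

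As background, p53 is held at a low level by the ubiquitin ligase Mdm2, which is itself a p53 target, and stress that stabilizes p53 raises transcription of cell cycle inhibitors and of pro-apoptotic genes. The Bcl2 family decides whether mitochondria release cytochrome c: Bax forms the pore, Bcl2 and BCL-XL (Bcl2l1) hold it in check, and BH3-only proteins such as PUMA (Bbc3), NOXA (Pmaip1), harakiri (Hrk) and BIM (Bcl2l11) relieve that check. In sensory neurons these genes are known from the death of neurons that lose trophic support during development. Tsc2 restrains mTORC1, the kinase complex that drives growth and protein synthesis.

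Promoter sequences of RefSeq (build GRCm38.p6), which run from 250 bases before to 50 bases after a gene's start, were searched for the consensus decamer of the p53 response element, a pattern that reads the same on both strands. Of 32851 such windows, 8.36% held the decamer, and 24 windows (0.0731%) held 2 decamers separated by at most 13 bases, the arrangement of a full response element. The set had an entry for 9 of its 10 genes, and 4 of these, Trp53, Mdm2, Cdkn1a and Bax, had a decamer in a window, beside 9.55% of all genes with a window. The stretches of the 3 of these genes that changed between genotypes are shown because their level differed and because Cdkn1a had the full arrangement. The Cdkn1a stretch lies at chr17:29090881-29090962 (plus strand), with decamers starting 73 and 51 bases before the upstream start and 12 bases apart. A further Cdkn1a window, at a downstream start (chr17:29093519-29093818), held no decamer. The Mdm2 stretch lies at chr10:117710910-117710969 (minus strand), with the decamer 186 bases before the start, and the Bax stretch at chr7:45467065-45467124 (minus strand), with the decamer 201 bases before the start. Each is read 5′ to 3′ along the gene, lies upstream of the gene and meets no annotated exon, and capitals mark the decamers.
Cdkn1a: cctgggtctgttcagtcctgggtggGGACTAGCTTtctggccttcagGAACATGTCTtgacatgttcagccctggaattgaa
Mdm2: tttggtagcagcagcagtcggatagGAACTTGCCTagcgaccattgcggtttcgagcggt
Bax: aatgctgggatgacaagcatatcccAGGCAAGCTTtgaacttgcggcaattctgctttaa
A match describes letters in a window and is not evidence of binding. Only exact matches are marked. The bases directly after the second Cdkn1a decamer (tgacatgttc) depart from the pattern in their first letter and stay in lower case, so the marked pair need not be the element in use. No decamer was found in the windows of Bbc3, Bcl2l11, Hrk, Bcl2 or Bcl2l1, which says only that these letters are not in these windows.

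Between genotypes, Cdkn1a, Mdm2, Bax and Hrk were higher and Bcl2 and Bcl2l1 lower in Nav-Tsc2 neurons, while Trp53, Bbc3, Pmaip1 and Bcl2l11 did not pass the test. Levels are given as counts per 1000000 counts on genes (CPM), scaled by the trimmed mean of M-values. A gene was called where edgeR's quasi-likelihood test gave an adjusted p below 0.05 and its log2 fold change was above 0.5 or below -0.5, with Benjamini-Hochberg adjustment over all 17178 genes tested. At these thresholds 4 of the 10 genes were called higher, where 9.12% of all genes tested were, and 2 were called lower, where 8.00% of all genes tested were. The median log2 fold change was 0.71 over the 10 genes and 0.01 over all genes tested. In 5 of the genes every Nav-Tsc2 mouse lay above every control mouse, as in 14.6% of all genes, and in 2 every Nav-Tsc2 mouse lay below, as in 12.3%. Hrk, Pmaip1 and Bcl2l11 had as few as 2, 3 and 1 counts in a control mouse and passed the low-count filter through the Nav-Tsc2 mice. Their part in these counts and in the median is therefore not independent of the filter. Without the filter the number called higher was also 4. Because the sorted cells were measured in bulk, fewer cells expressing a gene and less RNA per cell cannot be told apart.

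**Figure D1:**
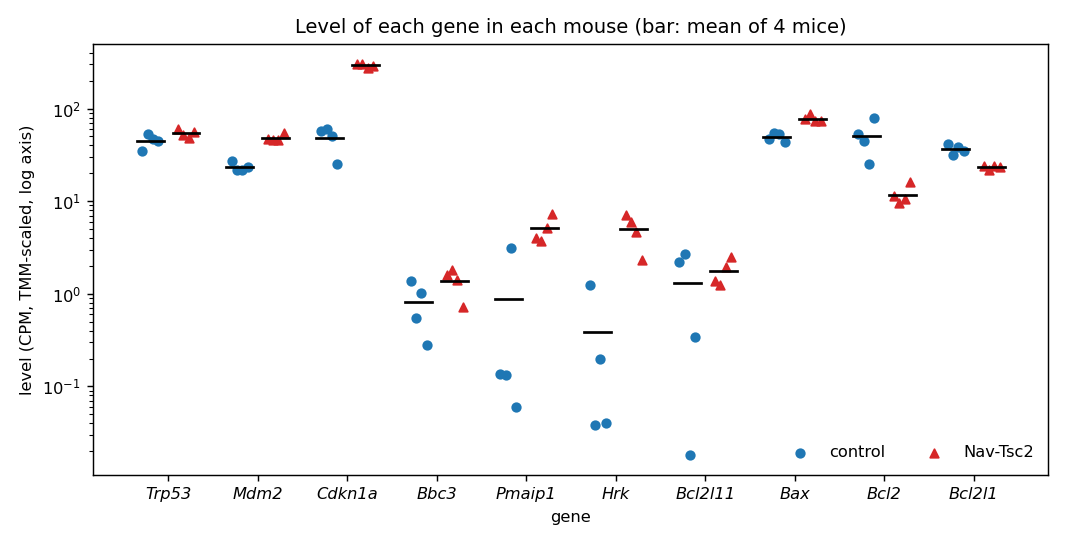
Level of the 10 genes in each mouse, in CPM on a log axis, with 1 point per mouse and a bar at the mean of the 4 mice of a genotype. Cdkn1a, Mdm2, Bax, Pmaip1 and Hrk lie higher in all 4 Nav-Tsc2 mice than in any control, Bcl2 and Bcl2l1 lie lower, and the 4 BH3-only genes have the lowest levels.

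Tsc2, the deleted gene, was 13.4 to 24.7 CPM in control and 7.30 to 11.0 CPM in Nav-Tsc2 mice, a log2 fold change of -1.24 ± 0.22 (SE, adjusted p = 0.00400). The nociceptor channel gene Scn10a, which encodes Nav1.8, was 510 to 791 CPM in control and 577 to 658 CPM in Nav-Tsc2 mice. Over the 8 nociceptor markers the summed level ran from 13926 to 24532 CPM in control and from 12272 to 15720 CPM in Nav-Tsc2 mice, with 1 gene called higher and 3 lower. The 10 glial markers summed to 2960 to 3098 CPM and 1940 to 2528 CPM, with only S100b called (lower). The 7 endothelial markers, of which 4 were tested, summed to 12.1 to 21.5 CPM and 19.7 to 34.9 CPM, with 3 called higher (Flt1, Kdr and Ly6c1). Flt1 reached at most 0.06 CPM in control and 3.67 to 12.7 CPM in Nav-Tsc2 mice, and Ly6c1 at most 0.03 CPM and 1.02 to 4.53 CPM. Kdr (at most 0.85 CPM and 0.76 to 2.64 CPM) and Egfl7 overlapped between genotypes. The defining genes Pecam1, Cdh5 and Cldn5 reached at most 1.59, 0.26 and 0.06 CPM in any mouse. The 6 macrophage markers summed to 2.80 to 8.21 CPM and 8.48 to 23.6 CPM, with Cx3cr1 called higher. Cx3cr1, Csf1r and Cd68 were higher in every Nav-Tsc2 mouse (lowest 2.82, 2.22 and 1.54 CPM) than in any control (highest 0.06, 2.19 and 1.02 CPM). Aif1 and Lyz2 overlapped between genotypes, and Ptprc reached at most 0.62 CPM. None of the 6 fibroblast markers, at 73.1 to 236 CPM and 121 to 196 CPM, was called. More genes had a count in Nav-Tsc2 libraries (17891 to 20466, median 19393.5) than in control libraries (15925 to 18544, median 17566), and the part of this in the results on genes of low level was not tested.

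Levels of different genes can be set beside each other only per length, here as CPM per kilobase of merged exon. In control neurons Bax had the highest level of the set on this scale, 31.3 ± 3.45 (SD, n = 4), followed by Cdkn1a (13.5 ± 4.42), Trp53 (11.0 ± 1.93), Bcl2l1 (8.02 ± 0.93), Bcl2 (5.52 ± 2.41) and Mdm2 (4.60 ± 0.49). The BH3-only genes came last, with Bbc3 at 0.383 ± 0.233, Pmaip1 at 0.318 ± 0.556, Bcl2l11 at 0.163 ± 0.165 and Hrk at 0.0674 ± 0.103 CPM per kilobase. Among control mice only the steps from Bax to Cdkn1a and from Mdm2 to Bbc3 separated neighbours without overlap. In Nav-Tsc2 neurons Cdkn1a came first, at 82.2 ± 4.09 CPM per kilobase, ahead of Bax (49.3 ± 3.88), Trp53 (13.4 ± 1.30), Mdm2 (9.51 ± 0.80), Bcl2l1 (5.06 ± 0.19) and Pmaip1 (1.86 ± 0.60), and each of these neighbours was separated in all 4 mice. Below them Pmaip1, Bcl2 (1.29 ± 0.31), Hrk (0.878 ± 0.354) and Bbc3 (0.650 ± 0.218) overlapped with their neighbours, and Bcl2l11 was lowest at 0.221 ± 0.0732 CPM per kilobase.

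Trp53, the gene for p53 itself (chr11:69580359-69591873, plus strand, build GRCm38), had 34.4, 53.1, 47.0 and 44.3 CPM in control replicates 1 to 4 and 60.1, 52.2, 47.8 and 56.0 CPM in Nav-Tsc2 replicates 1 to 4. The genotypes overlapped, since control replicate 2 lay above the Nav-Tsc2 replicates 2 and 3. The log2 fold change was 0.27 ± 0.14 (SE, adjusted p = 0.204), and Trp53 was not called in any of 16 other fits of the comparison, in which it ran from 0.17 to 0.37. p53 is regulated largely through the stability of the protein, which RNA-seq does not measure.

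Mdm2, the ubiquitin ligase that marks p53 for degradation (chr10:117688875-117710758, minus strand), had 27.0, 21.6, 21.8 and 23.2 CPM in control mice and 46.6, 46.2, 46.2 and 54.4 CPM in Nav-Tsc2 mice. All Nav-Tsc2 mice lay above all controls, and so did all 12 Nav-Tsc2 libraries, whose lowest value was 39.9 CPM where the highest control library had 31.7 CPM. The mean rose 2.07-fold, a log2 fold change of 1.05 ± 0.12 (SE, adjusted p = 0.000368). Within each mouse the ratio of Mdm2 to Trp53 counts per exon length was 0.625, 0.324, 0.369 and 0.417 in control and 0.617, 0.705, 0.769 and 0.773 in Nav-Tsc2 mice. This ratio, which does not depend on library scaling, overlapped only at control replicate 1, the control mouse with the lowest Trp53 and the highest Mdm2 level. Counts per gene do not separate transcripts of the upstream Mdm2 promoter, whose window is shown above, from those of its internal p53-responsive promoter.

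Cdkn1a, which encodes the cell cycle inhibitor p21, is a p53 target with other inputs as well (chr17:29090976-29100727, plus strand). It had 56.9, 60.1, 49.9 and 25.4 CPM in control mice and 299, 306, 272 and 291 CPM in Nav-Tsc2 mice. The lowest Nav-Tsc2 mouse was thus well above the highest control, and among libraries the lowest Nav-Tsc2 value, 245 CPM, lay above the highest control value, 96.0 CPM. The mean rose 6.07-fold (log2 fold change 2.60 ± 0.24, SE, adjusted p = 0.000130). The Nav-Tsc2 mice varied little around their mean (292 ± 14.5 CPM, SD, n = 4), whereas control replicate 4 was the lowest of its group and held 1 library of 2.48 CPM. An antisense gene overlaps 7.68% of the Cdkn1a exon length, and since the library kit does not keep strand its reads could not be told apart there.

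**Figure D2:**
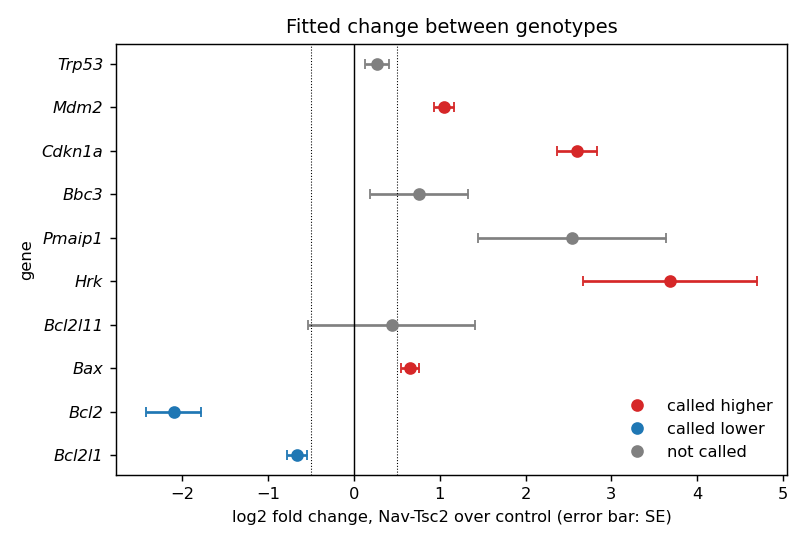
Log2 fold change of Nav-Tsc2 over control for the 10 genes, with SE as error bars and dotted lines at the fold thresholds of 0.5 and -0.5. Cdkn1a, Mdm2, Hrk and Bax were called higher and Bcl2 and Bcl2l1 lower, and the BH3-only genes have the widest errors.

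The BH3-only genes had few counts. A count of 0 allowed a level of up to 0.105 to 0.246 CPM in a control library and 0.0876 to 0.360 CPM in a Nav-Tsc2 library (3 counts of the total, counting error only). Hrk had no count in 4 of 12 control libraries, Bcl2l11 in 4, Pmaip1 in 2 and Bbc3 in 1, and no Nav-Tsc2 library had a count of 0 for any of them.

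Hrk, the BH3-only gene harakiri, which is expressed mainly in neurons (chr5:118164648-118189478, plus strand), had 1.25, 0.0379, 0.199 and 0.0402 CPM in control mice, from 74, 2, 11 and 2 counts. In Nav-Tsc2 mice it had 7.02, 5.93, 4.67 and 2.34 CPM, from 341, 335, 286 and 138 counts. The genotypes did not overlap, and each of the 12 Nav-Tsc2 libraries exceeded 1 CPM, as did 2 of the 12 control libraries, both from control replicate 1. The log2 fold change was 3.68 ± 1.01 (SE, adjusted p = 0.0293), a value that rests on few control counts. The call was lost without control replicate 3 (adjusted p = 0.0575) and without Nav-Tsc2 replicate 1 (0.0768), 2 (0.0706) or 3 (0.0574), with log2 fold changes of 3.45 to 3.71. Without control replicate 1, which held most of the control counts, it was 5.70 (adjusted p = 0.00176).

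Pmaip1, the BH3-only gene NOXA and a p53 target (chromosome 18), had 0.136, 0.133, 3.15 and 0.0602 CPM in control mice and 4.03, 3.75, 5.16 and 7.35 CPM in Nav-Tsc2 mice. Every Nav-Tsc2 mouse lay above every control, but the gene did not pass the test (log2 fold change 2.54 ± 1.10, SE, adjusted p = 0.136). It did pass in DESeq2 (2.54, adjusted p = 0.0408), with the replicate block (4.32, adjusted p = 0.0464) and with the 24 libraries and mouse as a random effect (4.73, adjusted p = 0.000192). Of the 174 counts of control replicate 3, 99.4% came from library B, at 5.85 CPM, while the other control libraries held at most 0.253 CPM. Without that library, a choice made after its value was seen, the log2 fold change was 5.69 (adjusted p = 0.000159), and without the whole of control replicate 3 it was 5.49 (adjusted p = 0.000235). Nav-Tsc2 libraries also varied widely, from 0.121 to 11.8 CPM, with both extremes in Nav-Tsc2 replicate 3.

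Bbc3, the BH3-only gene PUMA and a p53 target (chr7:16308393-16318205, plus strand), had 1.39, 0.549, 1.03 and 0.281 CPM in control mice and 1.60, 1.79, 1.40 and 0.728 CPM in Nav-Tsc2 mice. The lowest Nav-Tsc2 mouse lay below 2 of the controls, and the log2 fold change of 0.76 ± 0.57 (SE, adjusted p = 0.398) was not distinguishable from the spread between mice at this depth. Over 16 other fits Bbc3 was never called, with log2 fold changes of 0.48 to 1.15.

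Bcl2l11, the BH3-only gene BIM (chr2:128126038-128162547, plus strand), had 2.20, 2.67, 0.0181 and 0.341 CPM in control mice and 1.36, 1.26, 1.96 and 2.52 CPM in Nav-Tsc2 mice. The control mice thus fell apart, with both males above both females, and the Nav-Tsc2 mice lay within the range of the controls. The log2 fold change over both sexes was 0.44 ± 0.98 (SE, adjusted p = 0.804). It ran from 0.02 without control replicate 3 to 2.45 with the 24 libraries and mouse as a random effect, the 1 of 16 other fits in which the gene was called (adjusted p = 0.0253). Within males, where both Nav-Tsc2 mice lay below both controls, it was -0.91, and within females, where both lay above, it was 3.63. The difference of these effects, male minus female, was -4.53 in edgeR's interaction test and did not pass (p = 0.0128, adjusted p = 0.385).

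**Figure D3:**
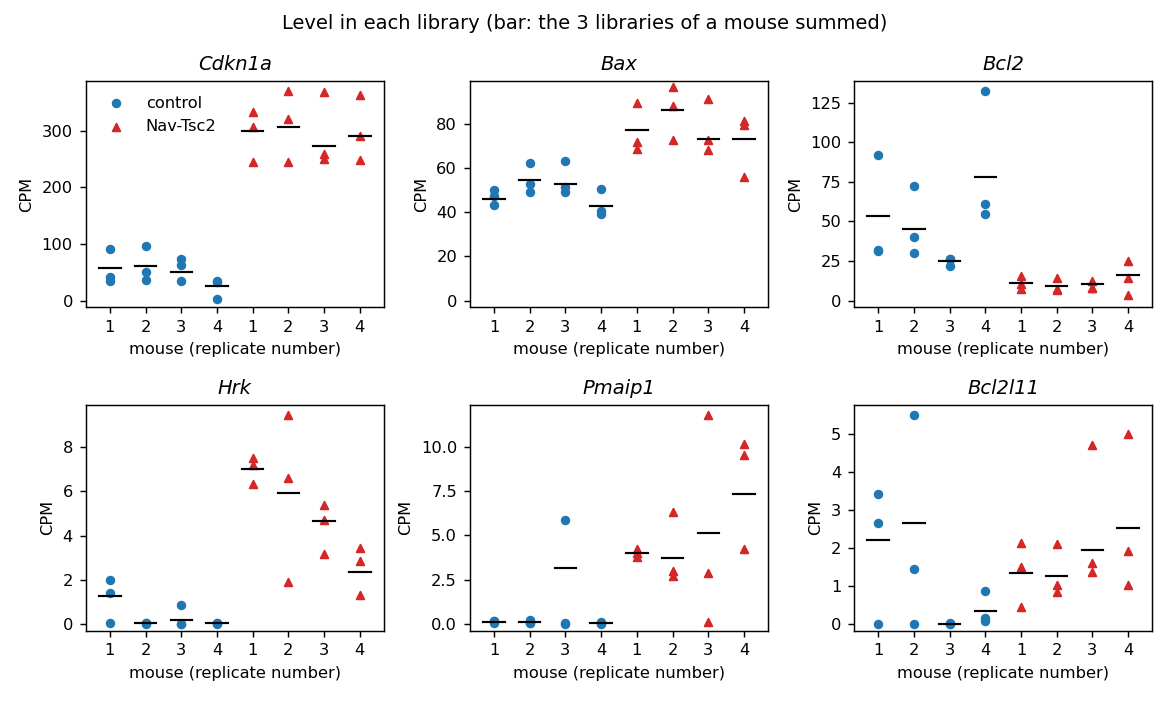
Level in CPM of 6 genes in each of the 24 libraries, by mouse, with 3 points per mouse and a bar at the level of their sum. Cdkn1a separates all libraries by genotype, the control level of Pmaip1 rests on 1 library of replicate 3, and Bcl2l11 is detected unevenly among the libraries of a control mouse.

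For all 10 genes the SD between single technical libraries of a mouse was larger than the SD between the mean values of mice of a genotype. Each mean averages 3 libraries, which alone lowers its SD. The order therefore does not show that mice differed less than libraries. On the scale of log2(CPM + 1), the SD between libraries was 0.20 for Bax and 0.28 for Bcl2l1 and rose to 0.79 for Bcl2l11, 0.82 for Cdkn1a and 0.88 for Pmaip1. The SD between mice was 0.14 for Bax, 0.13 for Bcl2l1, 0.52 for Bcl2l11, 0.62 for Cdkn1a and 0.45 for Pmaip1. Between libraries the SD was 0.30 for Trp53, 0.37 for Bbc3, 0.38 for Mdm2, 0.52 for Hrk and 0.71 for Bcl2. On this scale Bax and Bcl2l1 had the smallest SD between libraries, and a large SD was found in genes of low and of higher level. The added 1 compresses the spread of genes near or below 1 CPM, so SDs are not comparable across levels. The SD of Cdkn1a includes the control library of 2.48 CPM.

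Bax, the pore-forming effector of mitochondrial apoptosis and a p53 target (chr7:45461697-45466898, minus strand), had 46.3, 54.6, 53.1 and 43.1 CPM in control mice and 77.5, 86.3, 73.1 and 73.5 CPM in Nav-Tsc2 mice. The genotypes did not overlap, and 11 of the 12 Nav-Tsc2 libraries lay above the highest control library, at 63.6 CPM. The mean rose 1.58-fold (log2 fold change 0.66 ± 0.11, SE, adjusted p = 0.00257). A gene annotated on the same strand overlaps 12.2% of its exon length, where reads are ambiguous.

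Bcl2, the founding anti-apoptotic member of the family (chr1:106538178-106714274, minus strand), had 53.3, 45.1, 25.2 and 78.4 CPM in control mice and 11.3, 9.45, 10.5 and 16.0 CPM in Nav-Tsc2 mice. The control mice spread widely, but the lowest of them lay above the highest Nav-Tsc2 mouse. The mean was 4.28-fold higher in control, a log2 fold change of -2.10 ± 0.32 (SE, adjusted p = 0.00182). Of the 12 Nav-Tsc2 libraries, 11 lay below the lowest control library, at 21.7 CPM. An antisense gene overlaps 6.09% of its exon length.

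Bcl2l1, which encodes BCL-XL (chr2:152780668-152831728, minus strand), had 41.8, 31.8, 38.3 and 35.2 CPM in control mice and 23.7, 21.9, 23.7 and 23.6 CPM in Nav-Tsc2 mice. All Nav-Tsc2 mice lay below all controls and close to each other (23.2 ± 0.87 CPM, SD, n = 4). The log2 fold change was -0.66 ± 0.12 (SE, adjusted p = 0.00361). The gene also gives a short pro-apoptotic splice form, which counts per gene do not separate from the long form.

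Set beside Bax in the same mouse and per exon length, both anti-apoptotic genes were lower in Nav-Tsc2 mice. The ratio of Bcl2 to Bax was 0.198, 0.142, 0.0818 and 0.313 in control and 0.0251, 0.0188, 0.0246 and 0.0374 in Nav-Tsc2 mice. The ratio of Bcl2l1 to Bax was 0.310, 0.200, 0.248 and 0.280 in control and 0.105, 0.0873, 0.111 and 0.110 in Nav-Tsc2 mice. Neither ratio overlapped between genotypes. This had to follow, since Bax lay higher and Bcl2 and Bcl2l1 lower in every Nav-Tsc2 mouse than in any control, so the ratios add no separate support. These ratios were formed after the calls on the genes were known and are given without a test.

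**Figure D4:**
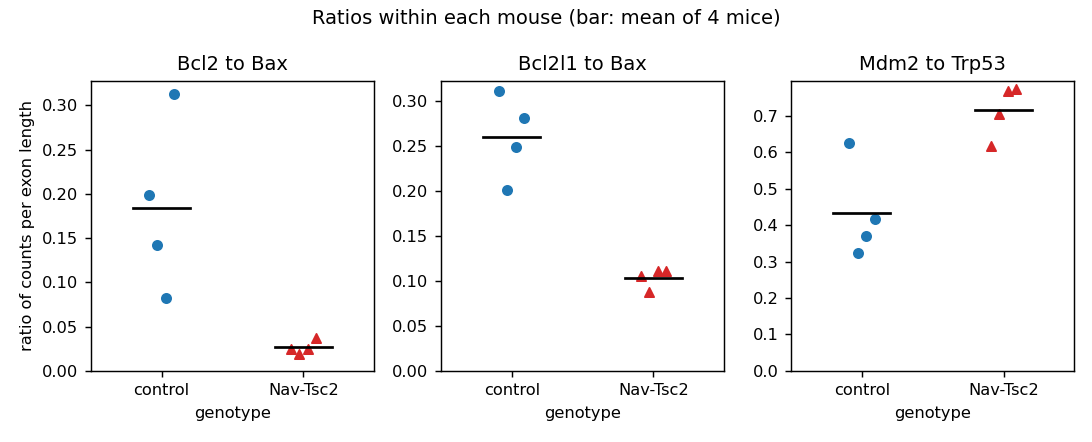
Ratios of counts per exon length within each mouse for Bcl2 to Bax, Bcl2l1 to Bax and Mdm2 to Trp53, with 1 point per mouse and a bar at the mean of 4 mice. The first 2 ratios are lower in every Nav-Tsc2 mouse, and the third overlaps at control replicate 1.

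Males and females could be compared with 2 mice of each sex per genotype. With the low-count filter, no interaction of genotype with sex passed for any of the 10 genes in edgeR, where 1 of all genes tested did (0.00582%). At an unadjusted p under 0.05 there was 1 of the 10, Bcl2l11, beside 9.22% of all genes. Bcl2l11 alone of the 10 passed in DESeq2 (adjusted p = 0.0252), where 366 of all genes (1.98%) did, and in edgeR without the filter (adjusted p = 0.0273), where 618 (2.05%) did. The 6 called genes had log2 fold changes of like sign in both sexes, for Cdkn1a 2.36 in males and 2.90 in females, for Mdm2 0.92 and 1.16, for Bax 0.69 and 0.61, for Hrk 3.30 and 4.83, for Bcl2 -2.25 and -1.97, and for Bcl2l1 -0.70 and -0.64. For Pmaip1 it was 4.83 in males and 1.96 in females, the sex that holds control replicate 3.

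Among 27 other p53 targets, all of which were tested, 5 were called higher (18.5%), 3 lower (11.1%) and 19 neither, with a median log2 fold change of 0.30, beside the 9.12% higher and 8.00% lower of all genes tested. Gadd45a, a stress sensor linked to DNA repair, had 20.4 to 28.0 CPM in control and 112 to 179 CPM in Nav-Tsc2 mice (log2 fold change 2.71 ± 0.17, SE, adjusted p = 2.24e-05). Phlda3, an inhibitor of Akt, had 1.83 to 2.93 CPM and 12.3 to 17.4 CPM (2.67 ± 0.24, adjusted p = 0.000115), and cyclin G1 (Ccng1), which feeds back on Mdm2, had 42.1 to 48.6 CPM and 70.5 to 99.1 CPM (0.84 ± 0.12, adjusted p = 0.00115). None of these 3 overlapped between genotypes. The RNA-binding protein gene Zmat3 rose from 58.3 ± 5.77 to 87.4 ± 10.7 CPM (adjusted p = 0.00716) and the nuclease gene Aen from 10.9 ± 2.89 to 20.7 ± 3.54 CPM (SD, n = 4, adjusted p = 0.0171). Aen lost its call without Nav-Tsc2 replicate 1 (adjusted p = 0.0580).

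The 3 that were lower were Ephx1, an epoxide hydrolase, at 204 ± 68.5 CPM in control and 67.6 ± 10.9 CPM in Nav-Tsc2 mice, the antiproliferative gene Btg2, at 152 ± 59.4 and 72.3 ± 15.8 CPM, and the kinase gene Plk2, at 42.2 ± 3.76 and 24.3 ± 8.31 CPM (SD, n = 4). Their log2 fold changes were -1.59, -1.07 and -0.80. Btg2 overlapped between genotypes, and Btg2 and Plk2 are also activity-dependent immediate-early genes. Without Nav-Tsc2 replicate 2, and likewise without replicate 3, only 1 of the 3 was called lower, since Btg2 (adjusted p = 0.0669 and 0.0622) and Plk2 (0.0696 and 0.0626) no longer passed, and over the 16 other fits Plk2 was called in 11. In the RefSeq windows, 7 of the 21 genes of this list with an entry held a p53 decamer, beside 9.55% of all genes with a window, and none held 2 in the full arrangement. Of these 7, Gadd45a, Ccng1 and Aen were called higher, and Ei24, Gtse1, Rps27l and Sesn1 were not called.

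Of 21 regulators of p53, 19 were tested, and 3 were called higher (15.8%), 1 lower (5.26%) and 15 neither, with a median log2 fold change of 0.01. Among all genes tested 9.12% were called higher and 8.00% lower. The 3 higher genes were the ubiquitin ligases Rchy1 (0.84 ± 0.12, SE, adjusted p = 0.00151) and Cop1 (0.83 ± 0.21, adjusted p = 0.0218), which like Mdm2 target p53, and the deacetylase Sirt1 (0.80 ± 0.24, adjusted p = 0.0392). Without Nav-Tsc2 replicate 1, and likewise without replicate 3, Rchy1 alone remained called. Cop1 was not called without control library 3B (0.64, adjusted p = 0.164), and Sirt1 kept its call in 7 of 16 other fits. The acetyltransferase gene Crebbp, at 251 ± 27.9 CPM in control and 177 ± 17.8 CPM in Nav-Tsc2 mice, was called lower with a log2 fold change of -0.51, at the fold threshold, and fell short of it without control replicate 1 or 2 and without Nav-Tsc2 replicate 2 or 4. Mdm4, the partner of Mdm2 that masks p53, had 32.1 ± 5.34 CPM and 31.2 ± 2.73 CPM and was not called.

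Of 16 other members of the Bcl2 family, 14 were tested, and 2 were called higher (14.3%), 1 lower (7.14%) and 11 neither, with a median log2 fold change of -0.18. The shares over all genes tested were 9.12% higher and 8.00% lower. The hypoxia-responsive mitophagy receptors Bnip3 and Bnip3l moved in opposite directions. Bnip3 had 261 ± 19.8 CPM in control and 155 ± 12.6 CPM in Nav-Tsc2 mice (-0.75 ± 0.09, adjusted p = 0.000498), and Bnip3l had 81.7 ± 4.46 CPM and 123 ± 14.2 CPM (0.60 ± 0.10, adjusted p = 0.00282). The anti-apoptotic gene Mcl1 had 34.1 ± 7.42 CPM and 48.8 ± 3.42 CPM and was called higher, near the threshold (log2 fold change 0.52 ± 0.16, SE, adjusted p = 0.0452). Mcl1 was called in 6 of 16 other fits, so that Bnip3l alone was called higher in most of them, while without control replicate 3 there were 4. Bcl2l2, which encodes the anti-apoptotic BCL-W, had 49.5 ± 2.90 CPM and 49.5 ± 4.18 CPM, and Bak1, the other pore-forming effector, 2.12 ± 0.28 CPM and 2.52 ± 0.62 CPM, and neither was called.

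Among 21 caspases, apoptosome components and their inhibitors, all tested, 1 was called lower (4.76%) and 20 neither, with a median log2 fold change of 0.22. The shares over all genes tested were 9.12% higher and 8.00% lower. Cflar, which encodes the caspase inhibitor c-FLIP, fell from 45.9 ± 9.97 to 20.0 ± 2.69 CPM (SD, n = 4), a log2 fold change of -1.20 ± 0.18 (SE, adjusted p = 0.00167), and kept its call in all 16 other fits. In edgeR 0 of the 21 were called higher, and DESeq2 called 1. At an unadjusted p under 0.05 in edgeR there were 3, a count given without the share over all genes. Xiap and Birc2, which bind or ubiquitinate caspases and their partners, and Dffa had adjusted p-values under 0.05 but log2 fold changes of -0.37, -0.46 and -0.33, within the fold threshold. Without control replicate 3 there were 2 genes called higher and without control replicate 2 there was 1, and without Nav-Tsc2 replicate 3 there were 2 called lower.

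Of 14 genes that act upstream of BH3-only genes, all tested, 1 was called higher (7.14%), 2 lower (14.3%) and 11 neither, with a median log2 fold change of -0.06. Among all genes tested 9.12% were called higher and 8.00% lower. Ddit3, which encodes the stress-induced transcription factor CHOP, rose from 69.8 ± 11.4 CPM in control to 178 ± 12.7 CPM in Nav-Tsc2 mice (1.35 ± 0.12, SE, adjusted p = 0.000132). Ngfr, the p75 neurotrophin receptor, fell from 407 ± 124 to 74.7 ± 16.6 CPM (-2.45 ± 0.25, adjusted p = 0.000239). Mapk10, the neuronal kinase JNK3, fell from 331 ± 27.2 to 160 ± 13.5 CPM (-1.05 ± 0.09, adjusted p = 0.000114). Jun, a substrate of the JNK kinases, had 67.1 ± 25.7 CPM and 99.8 ± 8.15 CPM (SD, n = 4) and was not called (adjusted p = 0.140). Without control replicate 3, 2 genes of this list were called higher.

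**Figure D5:**
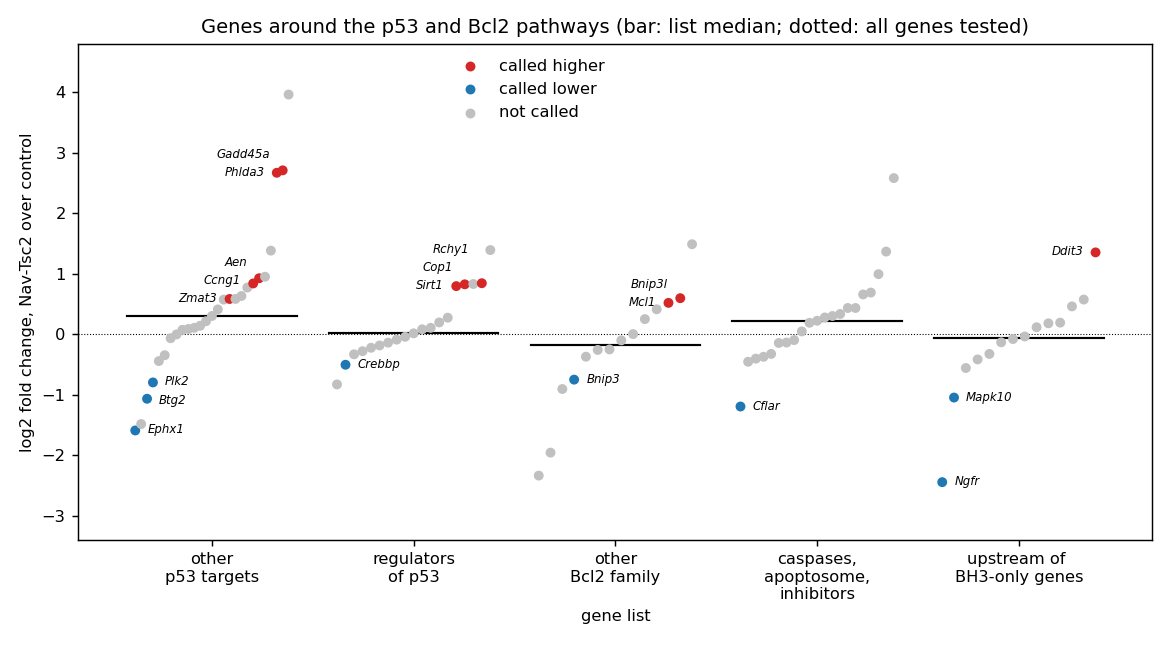
Log2 fold change of Nav-Tsc2 over control for each tested gene of 5 lists around the set, in order of size within a list, with a bar at the list median and a dotted line at the median of all genes tested. Called genes are coloured and named, with Gadd45a and Phlda3 near 2.7 among the p53 targets and Ngfr at -2.45 among the upstream genes.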

How the data were processed

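RNA-seq was performed on 24 libraries. The authors amplified cDNA from 100 sorted cells with a kit that keeps neither strand nor molecular identifiers and sequenced single reads of 50 bases. Per the study's methods, the authors checked reads with FastQC, aligned them to mm10 with STAR and deposited HTSeq counts per gene and library without normalization. Tool versions, the annotation release and the strand setting of the counting are not given in the sources used here. A further deposited table holds the authors' DESeq2 results and per-mouse values divided by size factors, and was not used.

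Identifiers were matched to symbols, positions and merged exon lengths with GENCODE M21 (GRCm38), and 47224 of 47643 matched. Counts were summed per mouse, filtered with filterByExpr and tested in edgeR 4.0.16 (R 4.3.3), where the SE is the absolute log2 fold change over the root of F. DESeq2 1.42.0 and limma 3.58.1 served for alternatives. The edgeR and DESeq2 comparisons of genotypes were tested on simulated counts, and the other fits were not. No 2 libraries were identical. Intervals from counts cover counting error only. The p-values from counts summed per mouse test an effect against the spread between mice. In the fit of 24 libraries the libraries of a mouse correlated at 0.0785. Its p-values therefore rest largely on the spread between libraries.

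The genes, the lists and the tests were chosen with earlier results of these data known. The text names all 10 genes, Tsc2, and in each list the called genes, at most 4 of smallest adjusted p per direction. Marker genes, Mdm4, Bcl2l2, Bak1, Xiap, Birc2, Dffa, Jun, Aen, Ei24, Gtse1, Rps27l and Sesn1 were named after their values were seen. Some genes of the caspase list are not reported here. Alternatives were DESeq2, DESeq2 size factors, sex as a covariate, a replicate block, no filter on low counts, the 24 libraries with mouse as a random effect, calls at adjusted p alone, leaving out each mouse, and, added after seeing the data, leaving out control library 3B or Nav-Tsc2 library 3B.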

Additional observations from a re-analysis of the deposited data

Results flagged for a closer look

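In 4 of the 20 groups of 4 mice formed by the 10 genes and both genotypes, 1 mouse lay far from the other 3, with a gap of more than 0.829 of the group's range, where chance gives about 1 group in 20. Pmaip1 had 3.15 CPM in control replicate 3 and 0.0602 to 0.136 CPM in the other controls, and nearly all of that count came from library B. Hrk had 1.25 CPM in control replicate 1 and at most 0.199 CPM in the other controls, with libraries B and C at 1.43 and 1.99 CPM and library A at 0.0634 CPM. Mdm2 had 54.4 CPM in Nav-Tsc2 replicate 4 and 46.2 to 46.6 CPM in the other Nav-Tsc2 mice, with library A at 87.1 CPM. Bcl2l1 had 21.9 CPM in Nav-Tsc2 replicate 2 and 23.6 to 23.7 CPM in the other Nav-Tsc2 mice, with library A at 14.6 CPM.

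The fitted log2 fold change of Bcl2l11 had opposite signs in the sexes, 3.63 in females and -0.91 in males, with 2 mice per sex and genotype. The female value rests on 1 and 17 counts in control replicates 3 and 4. The interaction did not pass in edgeR with the low-count filter (adjusted p = 0.385). It passed in edgeR without the filter (adjusted p = 0.0273), as did 2.05% of all genes, and in DESeq2 (adjusted p = 0.0252), as did 1.98%. In male controls the gene had no count in library A of either replicate and 1.45 to 5.50 CPM in libraries B and C. Library A was also low in the female controls, at 0 and 0.0751 CPM, where libraries B and C had 0 to 0.878 CPM.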

How the results depend on the processing

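Over the 16 other fits, Cdkn1a, Mdm2, Bax, Bcl2 and Bcl2l1 kept their direction and call, and Trp53 and Bbc3 were never called. The 2 genes called lower were Bcl2 and Bcl2l1 in every fit. The number called higher, 4, ran from 3 to 4 when a mouse was left out, and was 5 with DESeq2, 5 with the replicate block, 5 without control library 3B and 6 with the 24 libraries and mouse as a random effect. Pmaip1 was gained in these (adjusted p = 0.0408, 0.0464, 0.000159 and 0.000192), and Bcl2l11 with the 24 libraries alone (log2 fold change 2.45, adjusted p = 0.0253). Without control replicate 3, Pmaip1 was gained and Hrk lost, and without Nav-Tsc2 replicate 1, 2 or 3 Hrk was lost. The number of the 10 genes with an interaction, 0, became 1 with DESeq2 and 1 without the low-count filter (Bcl2l11, adjusted p = 0.0273), fits in which 366 and 618 of all genes passed. The cause was not tested. Over all genes the median log2 fold change lay between -0.01 and 0.09 in these fits.

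Deviations of mice with the same number correlated across 8239 genes at 0.0196, 0.0538, -0.0478 and 0.0267, and on log2(CPM + 1) over 8445 genes at 0.0831, 0.108, 0.0187 and 0.107. The numbers share a sex and are otherwise not shown to pair mice, and not every mouse correlated best with its own number. The replicate block moved Pmaip1 to a log2 fold change of 4.32 and changed no other call among the 10 genes. Among the list genes named, Aen (adjusted p = 0.0584) and Mcl1 (0.0897) lost their call under it.

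The counts of the 5 lists ran from 4 to 8 higher and 1 to 3 lower for other p53 targets, 1 to 4 and 0 to 1 for regulators of p53, 1 to 4 and 1 to 2 for the Bcl2 family, 0 to 3 and 1 to 4 for caspases, and 1 to 3 and 2 to 3 for upstream genes. The BH3-only genes had few counts in control mice, as few as 1 (Bcl2l11).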
